A study of Homo sapiens with 4 samples.

Results

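The 10 genes described here make, break down or bind hyaluronan: the synthases *HAS1*, *HAS2* and *HAS3*, the hyaluronidases *HYAL1*, *HYAL2* and *HYAL3*, the hyaluronan-depolymerizing protein gene *CEMIP*, and the binding genes *CD44*, *VCAN* and *HMMR*. They were taken by symbol from a table of 63677 Ensembl genes, and all 10 were matched. LX-2, an immortalised line of human hepatic stellate cells, received either a mimic of miR-6133-5p or a negative control mimic (miControl), each at 20 nM. Cells of both groups were then given rhTGF-β1, the recombinant form of the profibrotic cytokine TGF-β1, at 5 ng/mL, and RNA was taken 24 h after that. Each group had 2 poly(A) RNA libraries, and no library without rhTGF-β1 was analysed here. The comparison asks how the transcripts of rhTGF-β1-treated cells differ with the microRNA mimic. The sources do not say whether the libraries of a group came from separate cultures, so the p-values measure the spread between these libraries, which may be technical.

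Hyaluronan is a long unbranched sugar chain of alternating glucuronic acid and N-acetylglucosamine. Synthases in the plasma membrane extend the chain from UDP-sugars and push it out of the cell, where hyaluronidases and related proteins cut it into fragments that are taken up or signal through receptors. In the extracellular matrix the chain is held by proteins with link modules such as versican, and at the cell surface by CD44, whose tail is tied to the actin cytoskeleton. In the liver, stellate cells are the main source of hyaluronan, and sinusoidal endothelial cells clear it from the blood.

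The sequences that follow are from RefSeq (GRCh38.p14) and are written 5′ to 3′. The hairpin of MIR6133, at chr7:133290881-133290988 on the plus strand, is shown because the mimic is named after the product of this gene. The mature microRNA was not located in it here. The promoter of *HMMR*, at chr5:163460382-163460681 on the plus strand, is shown because *HMMR* was the hyaluronan gene that rose, and its level is set below beside those of mitotic genes. This window of 300 bases runs from 250 bases before the annotated start of the gene to 50 bases after it. Capitals mark the letters CCAAT, the core of the CCAAT box, and TTTGAA, the core of the cell cycle genes homology region (CHR), each on either strand. Both motifs are known from promoters of genes used in late cell cycle. The motifs were chosen after the data had been seen and this promoter read.

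MIR6133 hairpin: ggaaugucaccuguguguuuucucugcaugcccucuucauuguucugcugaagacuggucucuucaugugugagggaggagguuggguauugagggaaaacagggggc

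HMMR promoter: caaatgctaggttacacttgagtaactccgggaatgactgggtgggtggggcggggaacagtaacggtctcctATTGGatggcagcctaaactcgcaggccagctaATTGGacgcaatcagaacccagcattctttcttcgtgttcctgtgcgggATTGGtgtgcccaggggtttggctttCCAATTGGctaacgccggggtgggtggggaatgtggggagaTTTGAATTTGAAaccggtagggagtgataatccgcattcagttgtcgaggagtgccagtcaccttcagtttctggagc

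CCAAT began at positions 74, 107, 156, 182 and 185 of this window and TTTGAA at positions 223 and 229, counted from 1 at its 5′ end. The CCAAT matches at 182 and 185 overlap each other, on opposite strands. Of all 27305 promoters of the same length, 35.7% held CCAAT, 15.4% held TTTGAA and 6.08% held both. Promoters were found for 9 of the 10 hyaluronan genes, all but *HAS2*. Only the *HMMR* window among these 9 held both motifs, while those of *HAS1* and *VCAN* held TTTGAA alone. Since the motifs were chosen with the *HMMR* promoter read, its holding both was known beforehand. A match is a description of the letters and not a site shown to be used.

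Total gene counts lay between 51862006 and 93811213 per library. Levels are given in CPM, the count relative to the library total after scaling by trimmed mean of M values (TMM), and 1 count was worth 0.0101 to 0.0203 CPM. The libraries of a group were not copies of each other, since their chi-square divided by its degrees of freedom was 12.8 for miControl and 44.3 for miR-6133-5p. Of the 10 stellate markers, 8 had enough counts to be tested. Of these, 4 were called lower (*COL1A1*, *COL1A2*, *ACTA2* and *TAGLN*), against 5.54% of all tested genes. The other 4 were not called. *VIM* and *PDGFRB* were nearly unchanged (log2 fold changes -0.02 and 0.04), and *COL3A1* was at -0.44 (adjusted p = 0.00486, edgeR). *DCN* was at -2.40 on 0 to 10 counts per library. *COL1A1*, the most abundant of the marker list in the miControl group, went from a mean of 2917 to 1064 CPM. The summed level of that list was between 5079 and 5598 CPM with miControl and between 3025 and 3363 CPM with miR-6133-5p, while *DES* and *LRAT* were at or near 0 in every library. Markers of other liver cells were low. Their summed levels with miControl and with miR-6133-5p were 9.53 to 9.62 and 13.0 to 13.6 CPM for 4 endothelial genes, 1.16 to 1.63 and 1.99 to 2.28 CPM for 5 macrophage and leukocyte genes, 3.70 to 4.55 and 6.79 to 7.30 CPM for 4 cholangiocyte genes, and 2.05 to 2.52 and 2.34 to 2.81 CPM for 6 hepatocyte genes. The endothelial gene *TIE1* went from a mean of 6.75 to 10.75 CPM (log2 fold change 0.67, adjusted p = 0.0018, edgeR). The cholangiocyte gene *KRT7* went from 4.03 to 6.84 CPM (0.76, adjusted p = 0.00317, edgeR). Neither reached the threshold of 0.8. *KDR* (-0.46), *VWF* (0.87), *CD14* (0.66) and *SERPINA1* (0.17) were tested and not called either. The hepatocyte genes *TTR* and *HNF4A*, the macrophage gene *CD163* and the cholangiocyte gene *CFTR* had no count in any library. The part of any of these in the results on hyaluronan genes was not tested. In such bulk libraries, fewer cells of a type and less RNA per cell cannot be told apart.

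With the miR-6133-5p mimic, *HAS2* and *VCAN* fell and *HMMR* rose. These 3 genes passed both thresholds, a log2 fold change beyond 0.8 and an adjusted p-value under 0.01 (edgeR quasi-likelihood test, 2-sided, Benjamini–Hochberg adjustment over all 18252 genes tested). Of the 10 genes, 9 had enough counts to be tested and *HAS1* did not. Thus 2 of 9 were called lower, against 5.54% of all tested genes, and 1 of 9 was called higher, against 2.9%. Calls in either direction made up 8.44% of all tested genes. The 10 genes were chosen with earlier results of these data known, so their counts were not tested against these shares. The other 6 tested genes were not called, although *CD44* and *HYAL2* had adjusted p-values below 0.01. For 4 of the 9 genes the pair of miR-6133-5p libraries was wholly below the miControl pair, which was so for 31.3% of all tested genes. It was wholly above for 3 of the 9 genes and for 33.2% of all tested genes. The median log2 fold change of the 9 genes was -0.01, beside 0.03 over all tested genes. An exact permutation test on groups of 2 reaches p = 0.333 at best, so every call depends on the variance that edgeR borrows from other genes.

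**Figure D1:**
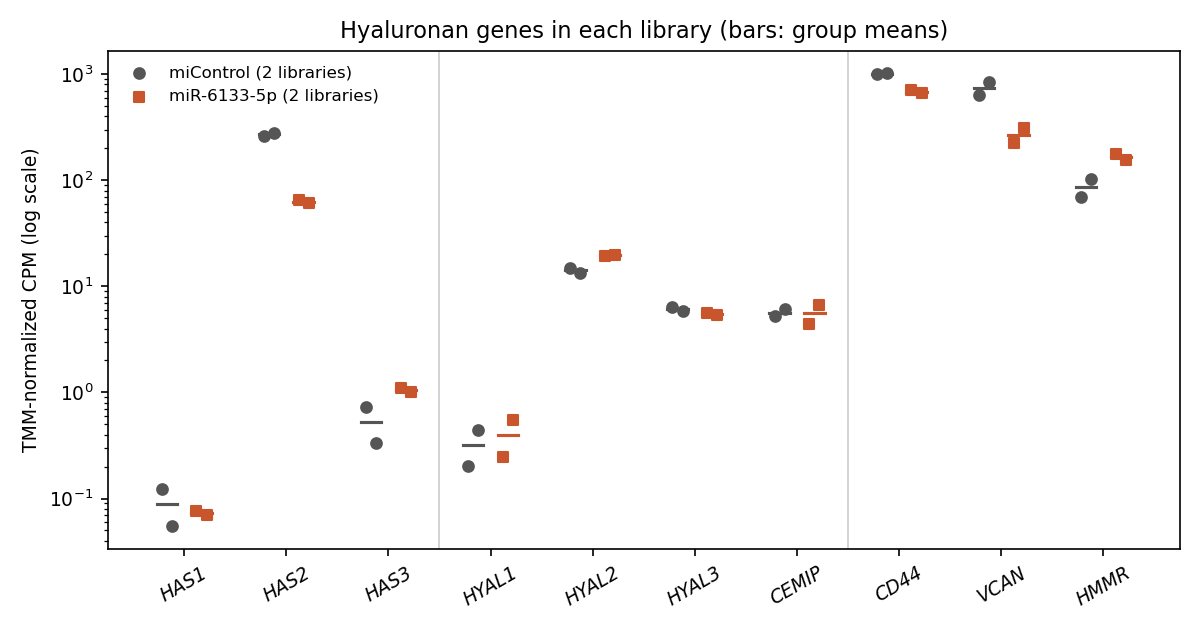
Level of each of the 10 hyaluronan genes in each library, in TMM-normalized CPM on a log axis; grey circles are the 2 miControl libraries, orange squares the 2 miR-6133-5p libraries and bars the group means. The squares of *HAS2* (60.4 and 65.7 CPM) and *VCAN* (226 and 312 CPM) lie below both circles, and those of *HMMR* (157 and 176 CPM) lie above.

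**Figure D2:**
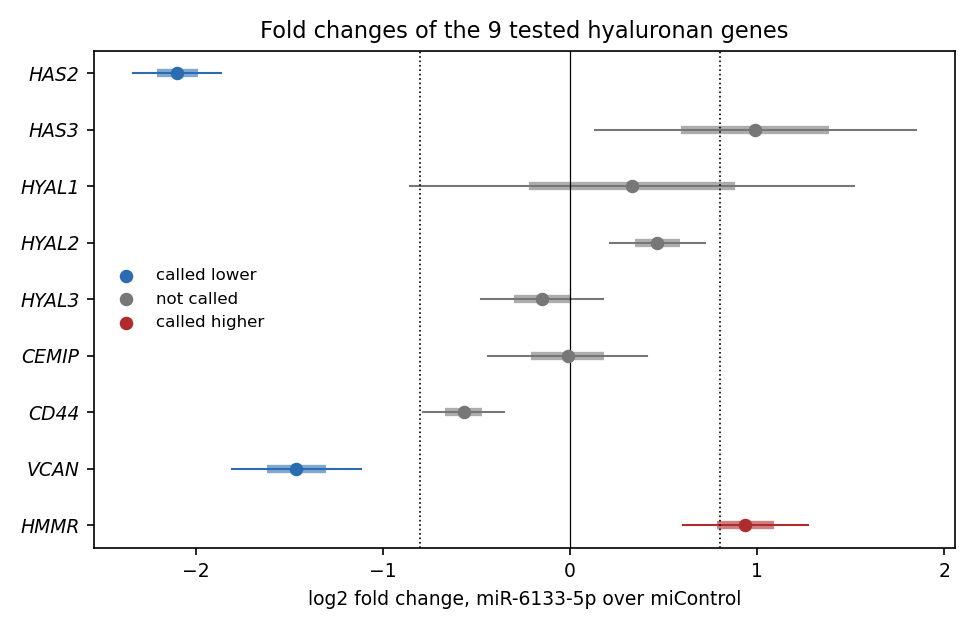
Log2 fold change (miR-6133-5p over miControl, x axis) of the 9 tested hyaluronan genes; points are edgeR estimates, thick bars 1 standard error and thin lines 95% confidence intervals, with dotted lines at the threshold of 0.8 in each direction. Only *HAS2* (-2.10), *VCAN* (-1.46) and *HMMR* (0.94) are called, and the interval of *HMMR* crosses the dotted line.

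Among the synthases, *HAS2* carried nearly the whole signal in both groups and fell by 2.10 on the log2 scale. *HAS2* (ENSG00000170961) encodes the synthase most used by fibroblast-like cells and lies on the minus strand of chromosome 8, from 122624356 to 122653680 of GRCh37. It was at 260.9 and 279.4 CPM in the miControl libraries and at 65.7 and 60.4 CPM in the miR-6133-5p libraries. The groups did not overlap, and the libraries within each group lay close together. The level with miControl was thus 4.29 times that with miR-6133-5p (log2 fold change -2.10, standard error 0.11, 95% confidence interval -2.34 to -1.87, adjusted p = 4.43e-08, edgeR). *HAS2* is on the list of predicted miR-6133-5p targets that the study picked for having fallen in these same libraries, so its fall is not independent evidence for that list. Per kilobase of exon, *HAS2* went from a level above 97.1% of the tested genes with miControl to one above 84.7% of them with miR-6133-5p.

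*HAS3* (ENSG00000103044; chromosome 16, from 69139556 to 69152622, plus strand) encodes a synthase that makes shorter chains. Its counts were 36 and 18 with miControl and 72 and 99 with miR-6133-5p, or 0.732, 0.330, 1.10 and 0.999 CPM. Both miR-6133-5p libraries were above both miControl libraries, but the miControl libraries differed from each other by about as much, and the gene was not called (log2 fold change 0.99, standard error 0.40, 95% confidence interval 0.13 to 1.85, adjusted p = 0.0777, edgeR). Exons of *CHTF8* and *DERPC* on the other strand cover 7.02% of the exon bases of *HAS3*. With the strand setting of the counting not given, part of its few reads is uncertain. *HAS1* (ENSG00000105509; chromosome 19, from 52216365 to 52227244, minus strand), which encodes the third synthase, had 6 and 3 counts with miControl and 5 and 7 with miR-6133-5p. It was at or just above the limit that a count of 0 allows, which was 3 counts, and too low for a test.

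Levels of different genes were compared in RPKM, which divides by exon length as well as by library size. *HAS2* made up 99.7% and 99.9% of the summed RPKM of the synthases in the miControl libraries and 98.4% and 98.5% in the miR-6133-5p libraries. The share of *HAS3* was 0.228% and 0.0963% with miControl and 1.35% and 1.33% with miR-6133-5p. *HAS2* was therefore still the main synthase transcript after its fall.

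*HAS2-AS1*, an antisense RNA gene that overlaps *HAS2* on the other strand, had 57 counts in each miControl library and 32 and 40 in the miR-6133-5p libraries. In CPM these were 1.16 and 1.05 with miControl and 0.489 and 0.403 with miR-6133-5p. The groups did not overlap, but the gene was not called (log2 fold change -1.31, standard error 0.36, adjusted p = 0.0135, edgeR). Exons of *HAS2-AS1* cover 5.92% of the exon bases of *HAS2*. The strand setting of the counting is not given in the sources used here, so reads from these shared bases cannot be assigned between the pair with certainty.

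None of the genes that cut hyaluronan was called. *HYAL2* (ENSG00000068001), whose product is anchored to the cell surface and cuts long chains, lies on the minus strand of chromosome 3, from 50355221 to 50360213. It was at 15.0 and 13.3 CPM with miControl and at 19.5 and 19.6 CPM with miR-6133-5p. The groups did not overlap, and the difference had an adjusted p-value of 0.0092 (edgeR), but its size of 0.47 on the log2 scale (standard error 0.12) was below the threshold of 0.8. Exons of *TUSC2* on the same strand cover 11.5% of its exon bases, so part of its reads is uncertain.

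*HYAL3* (ENSG00000186792; chromosome 3, from 50330262 to 50336836, minus strand) encodes a hyaluronidase with little activity of its own. Its levels were 6.43 and 5.80 CPM with miControl and 5.66 and 5.36 CPM with miR-6133-5p, and its log2 fold change was -0.15 (standard error 0.15, 95% confidence interval -0.48 to 0.17), which turned to 0.01 with scaling by library totals alone. The miR-6133-5p libraries lay just below the miControl libraries. Exons of *IFRD2* and *NAA80* on the same strand cover 13.98% of its exon bases.

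*HYAL1* (ENSG00000114378; chromosome 3, from 50337321 to 50349812, minus strand), the lysosomal hyaluronidase, had 10 and 24 counts with miControl and 16 and 55 with miR-6133-5p. At 0.203, 0.441, 0.245 and 0.555 CPM the groups overlapped, and the 95% confidence interval of the log2 fold change ran from -0.85 to 1.52, so no difference was detectable with these counts and this spread between libraries.

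*CEMIP* (ENSG00000103888; chromosome 15, from 81071684 to 81244117, plus strand) encodes a protein that fibroblasts need to depolymerize hyaluronan. It was at 5.21 and 6.08 CPM with miControl and at 4.40 and 6.72 CPM with miR-6133-5p. The miR-6133-5p libraries lay on either side of the miControl libraries. The difference was -0.01 on the log2 scale (standard error 0.20, 95% confidence interval -0.44 to 0.41) and became 0.15 with library totals alone.

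The binding genes were the most abundant besides *HAS2*, and they did not move together. *CD44* (ENSG00000026508), the main cell-surface receptor for hyaluronan, lies on the plus strand of chromosome 11, from 35160429 to 35253949. It was at 1003 and 1016 CPM with miControl and at 704 and 657 CPM with miR-6133-5p. Both miR-6133-5p libraries were lower than both miControl libraries, with an adjusted p-value of 0.000853 (edgeR). Its log2 fold change of -0.57 (standard error 0.10, 95% confidence interval -0.79 to -0.35) stayed inside the threshold of 0.8, so *CD44* was not called. The counts sum all its transcripts and hold no information on the splice forms for which this receptor is known.

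*VCAN* (ENSG00000038427), on the plus strand of chromosome 5 from 82767437 to 82878122, encodes versican, a large proteoglycan that binds hyaluronan through its link modules. It fell from 642 and 842 CPM in the miControl libraries to 226 and 312 CPM in the miR-6133-5p libraries. The spread within each group was wider than for *HAS2*, with no overlap between the groups. The level with miControl was 2.76 times that with miR-6133-5p (log2 fold change -1.46, standard error 0.16, 95% confidence interval -1.81 to -1.12, adjusted p = 1.65e-05, edgeR).

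*HMMR* (ENSG00000072571), on the plus strand of chromosome 5 from 162887209 to 162918947, encodes RHAMM, which binds hyaluronan outside the cell and microtubules of the mitotic spindle inside it. It rose from 69.9 and 103.5 CPM with miControl to 175.7 and 156.5 CPM with miR-6133-5p. The miControl libraries were far apart, and both lay below the miR-6133-5p libraries. The level with miR-6133-5p was 1.92 times that with miControl (log2 fold change 0.94, standard error 0.15, 95% confidence interval 0.60 to 1.27, adjusted p = 0.000481, edgeR). The call rested on miControl replicate 1, without which the log2 fold change was 0.67 with an adjusted p-value of 0.0149, and it was not made when the fold change was tested against the threshold itself by glmTreat (adjusted p = 0.822).

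In order of RPKM with miControl, *CD44* was highest at 101.0 ± 0.941 (SD, n = 2), followed by *HAS2* at 63.7 ± 3.09, *VCAN* at 50.5 ± 9.66 and *HMMR* at 22.05 ± 6.05. The other genes were far lower, with *HYAL2* at 3.20 ± 0.263, *HYAL3* at 3.11 ± 0.225, *CEMIP* at 0.740 ± 0.0807, *HYAL1* at 0.104 ± 0.0544, *HAS3* at 0.102 ± 0.0546 and *HAS1* at 0.0396 ± 0.0212. In that order, *HYAL2* and *HYAL3* overlapped in their libraries, as did *HYAL1* and *HAS3*. With miR-6133-5p the RPKM of *CD44* was 68.1 ± 3.29, and *HMMR* at 42.2 ± 3.45 came next. *VCAN* at 18.3 ± 4.18 and *HAS2* at 14.9 ± 0.888 followed and overlapped each other. The order of *VCAN* and *HAS2* and their overlap in either group hold for the exon union only. The longest transcript of *VCAN* has 12345 bases against 14678 in its exon union, while *HAS2* has 4240 by both. Below these, *HYAL2* was at 4.42 ± 0.0158, *HYAL3* at 2.80 ± 0.109, *CEMIP* at 0.730 ± 0.215, *HAS3* at 0.202 ± 0.0139, *HYAL1* at 0.130 ± 0.0711 and *HAS1* at 0.0329 ± 0.0019. *HMMR* thus went from the fourth place, below *HAS2* and *VCAN*, to the second, above both, with no overlap to its neighbours in either group.

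The genes around these 10 were described by 8 lists, of which 73 genes were matched. Not all of the matched genes had enough counts to be tested. The tested genes numbered 7 for UDP-sugars, 4 for other breakdown, 4 for other receptors and 3 for other matrix proteins. They numbered 6 for CD44 linkers and splicing, 5 for versican proteases, 13 for glycosaminoglycan chains and 14 for mitosis. Among these tested genes, 6 were called lower and 4 higher, while 5.54% and 2.9% of all tested genes were. With library totals alone this balance turned to 4 lower and 6 higher. All 7 genes that make the UDP-sugars from which hyaluronan is built were tested. Of these, 2 were called lower and none higher, against 5.54% and 2.9% of all tested genes. The median log2 fold change of this list was -0.64. *GFPT1*, the first enzyme of the hexosamine pathway, fell from 299 and 307 CPM to 151 and 159 CPM (log2 fold change -0.97, standard error 0.10, adjusted p = 1.31e-05, edgeR). *GNPNAT1*, which acetylates glucosamine 6-phosphate in the same pathway, fell from 196 and 203 CPM to 85.7 and 93.7 CPM (log2 fold change -1.15, standard error 0.10, adjusted p = 3.48e-06, edgeR). *UAP1*, which makes UDP-N-acetylglucosamine in the last step, was the most abundant gene of the list that was not called, with a log2 fold change of -0.03. *UGDH*, the source of UDP-glucuronic acid, *GFPT2*, the paralog of *GFPT1*, and *UGP2*, which makes UDP-glucose, are named after their values were seen. *UGP2* was at 99.1 and 109 CPM with miControl and at 140.5 and 123 CPM with miR-6133-5p, and was not called (log2 fold change 0.34, adjusted p = 0.0334, edgeR). *UGDH* and *GFPT2* had adjusted p-values below 0.01 (0.000122 and 0.000348, edgeR), but their log2 fold changes of -0.74 and -0.64 did not reach the threshold.

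**Figure D3:**
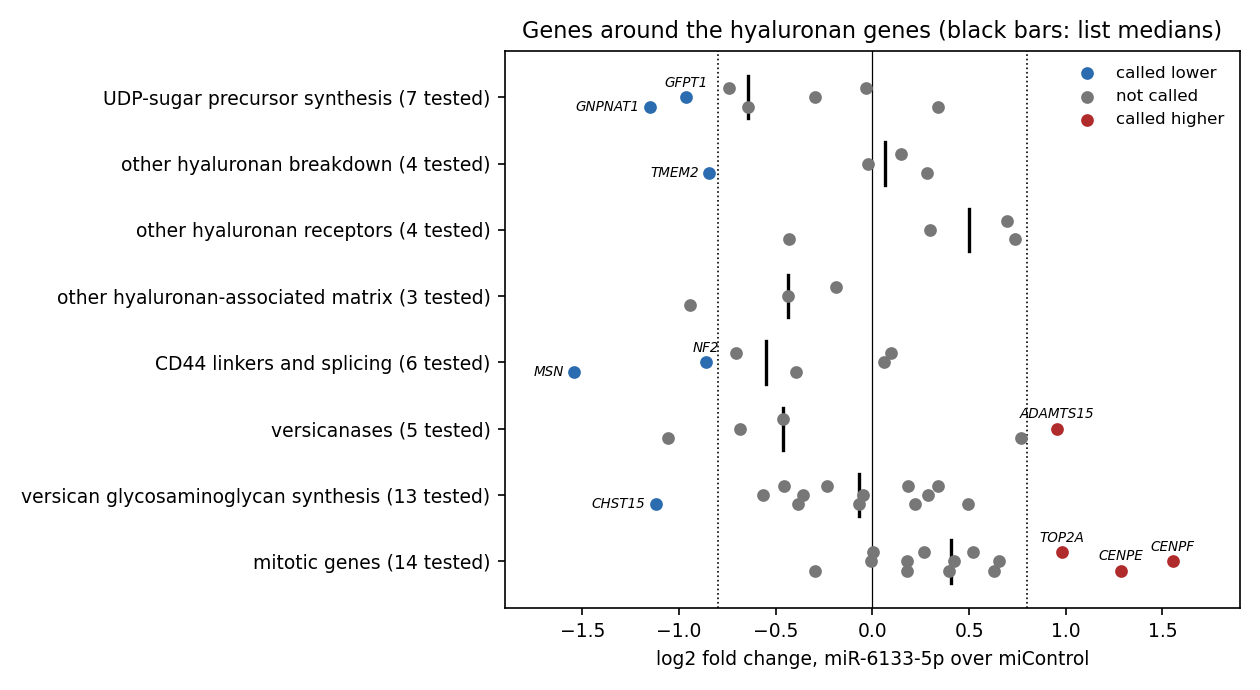
Log2 fold change (miR-6133-5p over miControl, x axis) of each tested gene in the 8 lists around the hyaluronan genes; each point is a gene, colour gives the call, black bars are list medians and dotted lines mark the threshold of 0.8. The called genes of the UDP-sugar and CD44 linker lists lie on the left (*MSN* at -1.54) and those of the mitotic list on the right (*CENPF* at 1.55).

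Of 6 other genes that break down hyaluronan, 4 were tested and 1 was called lower, against 5.54% of all tested genes. *TMEM2*, also named *CEMIP2*, a relative of *CEMIP* at the cell surface that has been linked to hyaluronan breakdown, fell from 103 and 108 CPM to 54.4 and 63.6 CPM (log2 fold change -0.84, standard error 0.11, adjusted p = 7.81e-05, edgeR), close to the threshold. Its call was lost with library totals alone (log2 fold change -0.68) and without miR-6133-5p replicate 1 (-0.73). *HYAL4* and *SPAM1* had no count in any library. Of 6 other receptors, 4 were tested and none was called, with *LAYN*, the layilin gene, the most abundant at a log2 fold change of 0.30. *LYVE1*, the receptor of lymphatic and sinusoidal endothelium, had no count in any library. Of 14 other genes for matrix proteins that bind or cross-link hyaluronan, 3 had enough counts to be tested and none was called. *PTX3*, a pentraxin of the cross-linked matrix, was the most abundant of them, at a log2 fold change of -0.44 (adjusted p = 0.0092, edgeR).

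Of 7 genes that tie CD44 to the cytoskeleton or splice its transcript, 6 were tested. Of these, 2 were called lower, against 5.54% of all tested genes. *MSN*, which encodes moesin, fell from 2422 and 2343 CPM to 796 and 839.5 CPM, with miControl at 2.91 times the level of miR-6133-5p (log2 fold change -1.54, standard error 0.10, adjusted p = 2.61e-07, edgeR). *NF2*, which encodes merlin, a tumour suppressor that binds the same tail, fell from 259 and 258 CPM to 142 and 143 CPM (log2 fold change -0.86, standard error 0.10, adjusted p = 3.05e-05, edgeR), a call that was lost with library totals alone (-0.70). *EZR*, the ezrin gene, was at 477 and 474 CPM with miControl and 505 and 512 CPM with miR-6133-5p, and was not called (log2 fold change 0.10). The splicing factor gene *ESRP1* had no count in any library.

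Genes that act on versican did not share 1 direction. Of 6 proteases that cut it, 5 were tested and 1 was called higher, against 2.9% of all tested genes. *ADAMTS15* rose from 2.75 and 3.47 CPM to 5.80 and 6.25 CPM (log2 fold change 0.95, standard error 0.18, adjusted p = 0.00112, edgeR), a call not made without miControl replicate 1 (0.79). *ADAMTS1*, far more abundant at 127 and 130.2 CPM with miControl and 78.0 and 81.7 CPM with miR-6133-5p, was not called (log2 fold change -0.68). Of the 13 genes that build the glycosaminoglycan chains of versican and other proteoglycans, 1 was called lower, against 5.54% of all tested genes. *CHST15*, a sulfotransferase of chondroitin sulfate, fell from 11.1 and 12.6 CPM to 5.09 and 5.79 CPM (log2 fold change -1.12, standard error 0.14, adjusted p = 6.45e-05, edgeR). *XYLT1*, which starts the chains and was the most abundant, had a log2 fold change of -0.39, and the median of the list was -0.07.

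*HMMR* was set beside 14 mitotic genes, some of them for partners of RHAMM at the spindle. All 14 were tested. Of these, 3 were called higher and none lower, against 2.9% and 5.54% of all tested genes. A positive log2 fold change was seen for 12, and the median was 0.41. The list was written with earlier results of these data known, so its counts are a description and were not tested against those shares. *CENPF*, a kinetochore gene, rose from 196 and 328 CPM to 619 and 917 CPM (log2 fold change 1.55, standard error 0.21, adjusted p = 0.000116, edgeR). *CENPE*, a kinetochore motor gene, rose from 53.8 and 72.5 CPM to 130.1 and 178 CPM (log2 fold change 1.29, standard error 0.16, adjusted p = 5.34e-05, edgeR). *TOP2A*, the topoisomerase of dividing cells, rose from 747 and 1057 CPM to 1683 and 1875 CPM (log2 fold change 0.98, standard error 0.14, adjusted p = 0.000198, edgeR). Like *HMMR*, these 3 genes were lower in miControl replicate 1 than in replicate 2, and *TOP2A* too was not called without miControl replicate 1 (0.75). In the miR-6133-5p libraries these 3 genes were again lower in replicate 1, whereas *HMMR* was higher there than in replicate 2. *MKI67*, the proliferation marker, was at 1047 and 1313 CPM with miControl and at 823 and 1540.1 CPM with miR-6133-5p, and was not called (log2 fold change 0.00, 95% confidence interval -0.46 to 0.46). The remaining genes of the list were not called either and are named after their values were seen. Log2 fold changes were 0.18 for *TPX2*, 0.27 for *AURKA*, 0.18 for *BRCA1* and 0.42 for *DYNLL1*. They were -0.30 for *PLK1*, -0.01 for *KIF11*, 0.40 for *CCNB1*, 0.52 for *CDK1*, 0.63 for *BUB1* and 0.65 for *KIF20A*.

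**Figure D4:**
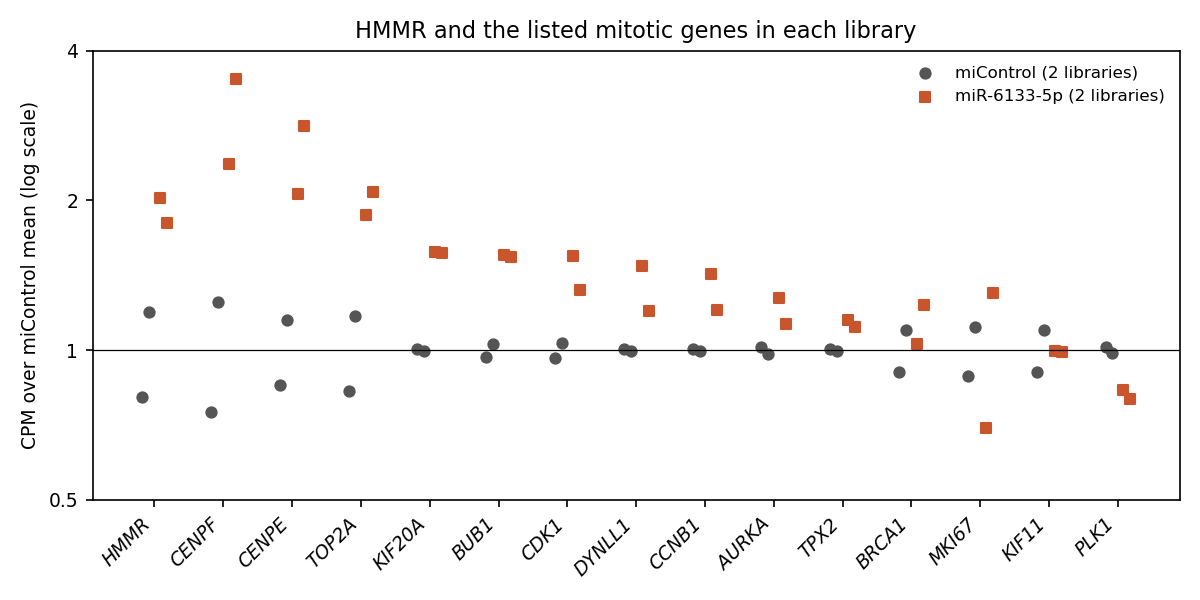
Level of *HMMR* and of the 14 listed mitotic genes in each library, as CPM divided by the mean of the miControl libraries (log axis); grey circles are the 2 miControl libraries and orange squares the 2 miR-6133-5p libraries. *HMMR* and 10 of the 14 mitotic genes have both squares above both circles, which was so for 33.2% of all tested genes. Among them, *HMMR*, *CENPF*, *CENPE* and *TOP2A* have circles farther apart than those of most other genes. The squares of *MKI67* lie on either side of its circles.

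Promoters were found for 12 of the 14 mitotic genes, of which 9 held CCAAT, 6 held TTTGAA and 6 held both motifs, as the *HMMR* promoter does. Those with both were *CDK1*, *CENPF*, *KIF11*, *MKI67*, *PLK1* and *TOP2A*. Of these 6, *CENPF* and *TOP2A* were called higher and the other 4 were not called, and *CENPE*, which was called, held neither motif. The mitotic list was written with earlier results of these data known and the motifs were chosen afterwards, so these shares were not tested.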

How the data were processed

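The deposited values are whole-number counts of reads per Ensembl gene for each library, which the authors made without normalization. The submitters' processing notes name STAR 2.5.3a, featureCounts, Subread 1.6.4 and GRCh37. The annotation release and the strand setting of the counting are not given in the sources used here. The members and gene lists were chosen with earlier results of these data known.

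Counts were filtered with filterByExpr, normalized by TMM and tested with glmQLFit and glmQLFTest in edgeR 4.0.16 (R 4.3.3), without covariates, at the thresholds named in the study's methods (adjusted p-value 0.01, log2 fold change 0.8). Standard errors came from the F statistic. Levels are CPM on TMM-scaled totals with no pseudocount, or RPKM over the union of exons in GENCODE v44lift37, which also gave gene positions on GRCh37 and matched 55665 of the 63677 identifiers. *PECAM1* was not matched. A count of 3, taken as the limit for a count of 0, was worth 0.0303 to 0.0610 CPM and covers counting error only. Named genes were all members, *HAS2-AS1* and, from each pathway list, every called gene and the most abundant gene not called, except that a result for a single gene is not reported here.

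Alternatives were RLE factors, library totals alone, DESeq2 1.42.0, no filter, at least 10 counts in every library, a replicate block, glmTreat (edgeR), an adjusted p-value of 0.05 and leaving out each library. The longest transcript as length was used for the synthase shares alone. The fits were tested on simulated data, where changed genes with low counts were often missed, so a low gene that was not called may still differ. Promoters and the hairpin were read in Python 3.11.15 (pandas 2.3.3), and matplotlib 3.10.9 was used for figures.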

Additional observations from a re-analysis of the deposited data

How the results depend on the processing

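*HAS2* and *VCAN* were called lower in all 12 alternatives run for them, with log2 fold changes from -2.16 to -1.94 and from -1.72 to -1.25. *HMMR* was called higher in 10 of 12, the exceptions being glmTreat and the fit without miControl replicate 1, and lay between 0.67 and 1.22. Among the 12, the adjusted p-value of 0.05 was a looser cutoff on the main fit, so it could not remove a call. *CD44*, *HYAL2* and *HAS3* were never called and kept their sign (from -0.62 to -0.41, from 0.36 to 0.63 and from 0.49 to 1.65). With library totals alone, the median over all tested genes was 0.19 in place of 0.03 on the log2 scale, all genes called lower numbered 709 and those called higher 977, against 1011 and 529 with TMM, and *HYAL3* (0.0124) and *CEMIP* (0.151) changed sign. With each library left out in turn, *HYAL1* ran from -0.41 to 0.98 and *CEMIP* from -0.36 to 0.25, both changing sign, the number of hyaluronan genes called higher from 0 to 1 and that of listed pathway genes called higher from 2 to 4. The lowest of both counts came without miControl replicate 1. The median of the tested hyaluronan genes lay between -0.36 and 0.25 over all alternatives. With glmTreat against the threshold, 0 hyaluronan genes were called higher (1 at an unchanged threshold), 326 genes of all were called lower and 80 higher, and 1 listed pathway gene (*MSN*) was called lower and 0 higher. With library totals alone, 4 listed pathway genes were called lower and 6 higher, against 6 and 4, with *KIF20A* and *ADAMTS4* added to those higher. With no filter, a replicate block or an adjusted p-value of 0.05, 8 were called lower. The genes added were *HAPLN3*, of the hyaluronan-associated matrix, and the versican protease gene *ADAMTS9*. In the main fit their log2 fold changes were -0.94 and -1.05 (adjusted p = 0.0115 and 0.0182, edgeR). Of the other pathway calls, *ADAMTS15* and *TOP2A* were also lost without miControl replicate 1, *NF2* and *TMEM2* with library totals alone, and *TMEM2* without miR-6133-5p replicate 1. The causes were not tested. *HAS1* entered a fit only with no filter on low counts (log2 fold change -0.25, adjusted p = 0.935, edgeR).

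With a replicate block, 2 hyaluronan genes were called lower and 1 higher, as without it, and 1130 genes of all were called lower and 642 higher. Whether the replicate numbers pair the samples was not established. The deviations of same-numbered libraries had a correlation of 0.049 across genes, which are not independent replicates. Such a low value does not exclude pairing, since shared effects on some genes only could leave it low. *HAS1* had too few counts for a test, *HYAL1* had few counts and a wide spread between libraries, and the 2 libraries per group allow no test of an outlying library. The planned description of seed matches, with its alternative choice of transcripts, was not run.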
